A study of Mus musculus with 6 samples.

Results

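The chaperones and protein folding factors were followed in the livers of 3 male mice, 1 mouse in each group. Members were the spots of 2 kinds of expression array, A and B, that carry a single annotated symbol of the Hsp70, Hsp90, small heat shock, Hsp60 and Hsp10, DnaJ, Cct, protein disulfide isomerase or FK506-binding families, or Canx or Calr. This gave 105 spots of 58 genes, of 9663 named spots of 7151 genes. By the place where their proteins work, 33 genes were cytosolic or nuclear, 16 belonged to the endoplasmic reticulum (ER), 8 were mitochondrial and Dnajc13 was left unplaced. The members were 70 spots of array A and 35 of array B, and each was annotated with its own cDNA sequence record. Whether all were different clones was not checked. Clones of related genes can bind the same RNA, which was not tested. Genes of the named families under other symbols, such as Tcp1 and Cryab, were not members.

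The youngest mouse (age group 1) ate ad libitum and was killed when 17 days old. The other two, of age group 2, were a mouse on an ad libitum diet killed at 174 days and a mouse on caloric restriction killed at 177 days. The unit of the youngest age rests on the labels alone. Strain, feeding schedule and time of death were not given in the sources used here. Values are spot intensities in arbitrary units, brought to a common distribution over the 3 mice and given as log2. A brightness filter kept a spot whose average level exceeded the 50th percentile for arrays of that kind. Each gene was given the middle value of the differences at its kept spots. With 1 mouse in a group there is no error between animals and no test, so every difference describes these mice only.

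Chaperones bind unfolded stretches of other proteins and let them fold. Hsp70 and Hsp90 work in rounds of ATP hydrolysis, J-domain proteins hand clients to Hsp70, chaperonins enclose a client in a ring, and disulfide isomerases and FK506-binding prolyl isomerases speed slow chemical steps of folding. The hepatocyte secretes much of the plasma protein and folds it in the ER. Genes of ER chaperones are induced by the unfolded protein response through Xbp1 and Atf6, and those of cytosolic and mitochondrial chaperones by heat shock factor, each at a short element near the start of the gene.

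These elements are shown for the members that the ER and mitochondrial results below turn on, from the RefSeq promoter windows of GRCm38.p6, which run from 250 bases before a start to 50 bases after it. Capitals mark the ER stress response element (CCAAT, 9 bases of any kind, CCACG), its variant in Dnajb11 (ATTGG, 1 base of any kind, CCACG) and the heat shock element before Hspe1 (GAA, 2 bases of any kind, TTC, 2 bases of any kind, GAA). Each was searched on both strands, so that a match on the other strand reads as the reverse complement.
Hspa5: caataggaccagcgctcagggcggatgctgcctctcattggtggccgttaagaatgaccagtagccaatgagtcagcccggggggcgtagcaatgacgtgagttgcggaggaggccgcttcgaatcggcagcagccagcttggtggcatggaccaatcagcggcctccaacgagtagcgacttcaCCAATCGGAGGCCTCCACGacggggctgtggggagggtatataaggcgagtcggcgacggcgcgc
Canx: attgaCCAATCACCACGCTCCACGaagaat
Calr: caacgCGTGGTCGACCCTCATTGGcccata
Hsp90b1: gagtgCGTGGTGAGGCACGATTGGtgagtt
Dnajb11: ccggcggcgATTGGCCCACGcctggctgct
Hspe1: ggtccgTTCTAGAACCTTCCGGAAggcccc

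The Hspa5 stretch is chr2:34771840-34772089 on the plus strand, the 250 bases before its annotated start. The others are 30 bases each. They are chr11:50325794-50325823 before Canx, chr8:84847069-84847098 before Calr and chr10:86705527-86705556 before Hsp90b1, all on the minus strand. The Dnajb11 stretch, chr16:22857843-22857872 on the plus strand, holds its element 8 to 18 bases after the start. The Hspe1 stretch, chr1:55088053-55088082 on the plus strand, lies between the divergent starts of Hspe1 and of 1 annotated Hspd1 transcript, which are 216 bases apart. There 2 overlapping matches to the heat shock element cover 18 bases, from 89 to 72 bases before Hspe1 and from 127 to 144 bases before Hspd1.

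**Figure D1:**
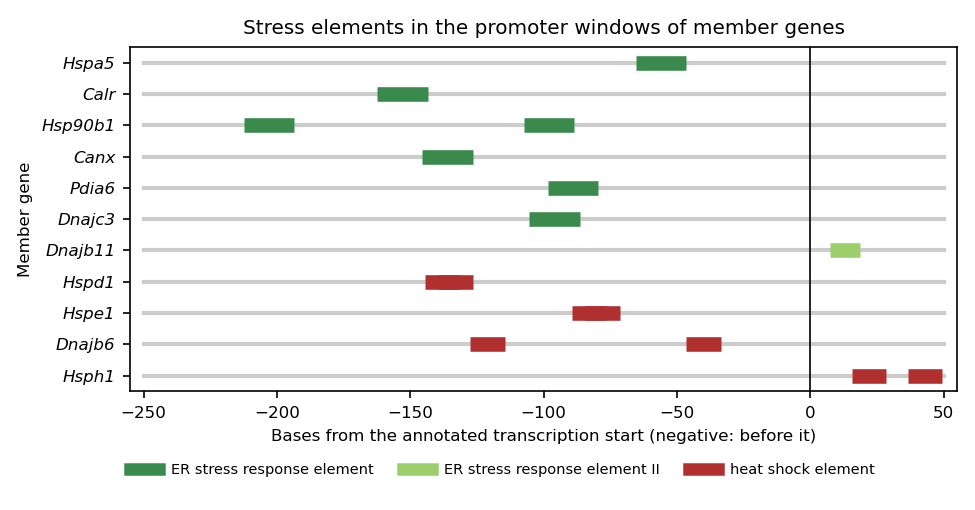
Matches to the ER stress response element (dark green), its variant (light green) and the heat shock element (red) in the promoter windows of member genes. The x axis gives bases from the annotated start. Dnajb6 and Hsph1 have 2 annotated starts and show the same match at 2 places. Hspd1 also has 2 annotated starts, but its matches lie in a single window and overlap. Hspa5 has its match 65 to 47 bases before the start, and Hsp90b1 has 2 matches.

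Of the 58 member genes, 49 had a promoter window. The ER stress response element was found on either strand for 6 of these 49 (12.2%), namely Hspa5, Calr, Hsp90b1, Canx, Pdia6 and Dnajc3, against 37 of 27025 genes (0.137%). The variant was found for Dnajb11 alone, 1 of 49 members (2.04%), against 12 of 27025 genes (0.0444%), and it overlapped no match of the longer form in a member. The heat shock element was found for Hspd1, Hspe1, Dnajb6 and Hsph1, 4 of 49 members (8.16%), against 179 of 27025 genes (0.662%). The elements were picked as those through which chaperone genes are induced, so a high share among the members is no independent result. A match describes these letters only and shows no binding in these livers.

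None of the 31 member genes with a spot above the brightness filter was 2-fold apart between any pair of mice. From 17 to 174 days, 1.16% of the 3865 genes measured in the same way were at least 2-fold apart, 0.724% higher and 0.44% lower. Caloric restriction against the 174-day mouse gave 6.86%, with 2.25% higher and 4.61% lower. Caloric restriction against the 17-day mouse gave 1.58%, with 0.466% higher and 1.11% lower. Beside shares this low, a count of 0 of 31 is not a result about the members. The comparisons share mice, and each animal enters a pair of them: a gene that reads low in the 174-day mouse alone lies below 0 with age and above 0 with diet. The arrays of that mouse were also the dimmest, with median intensities of 35.8 to 60.8 against 332.8 to 402.5 in the other mice. What part this has in the age and diet differences was not tested.

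In the age comparison (174 days minus 17 days, both ad libitum) the 31 genes had a median difference of 0.0015 log2 against -0.03 for all 3865 genes, and ran from -0.52 (Cct3) to 0.50 (Pdia4). Of them 16 lay above 0 and 15 below (all genes, 46.3% above and 53.5% below). In the diet comparison (caloric restriction minus the 174-day mouse) the median was 0.03 against -0.04, and the range -0.94 (Dnajb4) to 0.71 (Cct3). Here 17 lay above 0 and 14 below (all genes, 47.2% and 52.7%). Caloric restriction minus the 17-day mouse gave a median of -0.05 against -0.09 and a range of -0.98 (Dnajb4) to 0.54 (Cct7), with 14 above 0 and 17 below (all genes, 41.1% and 58.8%). The central 90% of all genes spanned -0.58 to 0.53 with age, -0.98 to 0.84 with diet and -0.74 to 0.61 in the last comparison. With median centring of the arrays in place of quantile normalization, the median of all genes moved to 0.21 with age and -0.31 with diet, and that of the 31 members to 0.23 and -0.23.

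**Figure D2:**
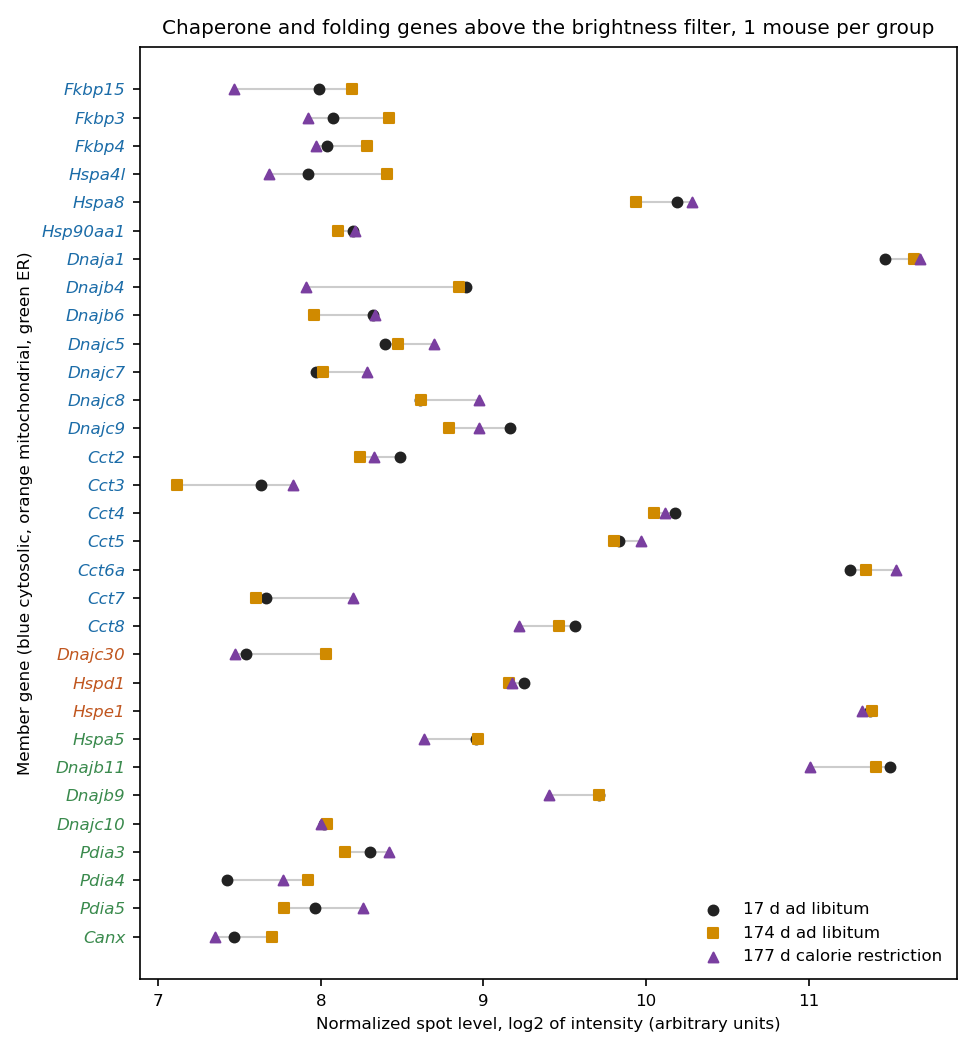
Normalized level (log2 of intensity, arbitrary units) of the 31 member genes above the brightness filter in the 17-day ad libitum (circles), 174-day ad libitum (squares) and calorie-restricted (triangles) mouse. Levels of different genes are not comparable, since each rests on its own spots. The 3 mice lie within 1 log2 of each other for every gene, and Dnajb4 has the widest gap, with the calorie-restricted mouse lowest.

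Spots named for the same gene give the only measure of error in these arrays. For 25 of the 31 genes a single spot passed the filter, and for 6 genes 2 to 5 spots did. Over these 17 spots the standard deviation within a gene was 0.30 log2 in the age comparison, 0.51 in the diet comparison and 0.38 between the calorie-restricted and the 17-day mouse. Over 1216 spots of 557 genes of all kinds it was 0.45, 0.58 and 0.40. Of the 31 members 24 lay nearer to 0 than the standard deviation of the member spots with age, 25 with diet and 27 in the last comparison. Those beyond it with age were Cct3, Dnajb6, Dnajc9, Dnajc30, Fkbp3, Hspa4l and Pdia4, and with diet Cct3, Cct7, Dnajb4, Dnajc30, Fkbp15 and Hspa4l. Between the calorie-restricted and the 17-day mouse they were Cct7, Dnajb4, Dnajb11 and Fkbp15. Within the wider standard deviation of genes of all kinds lay also Dnajb6, Dnajc9 and Fkbp3 with age, and Dnajc30 with diet. The same count over all genes was not made, so these counts are not a result about the members.

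Among the cytosolic Hsp70 and Hsp90 genes, Hspa8 had 4 spots and Hsp90aa1 had 5 above the filter. Hspa8 encodes the constitutive cytosolic Hsp70, which also uncoats clathrin vesicles. Its normalized level was 10.19 log2 at 17 days, 9.94 at 174 days and 10.28 under caloric restriction. Its brightest spot, on array B, had deposited intensities of 11902 at 17 days, 2341 at 174 days and 7164 under caloric restriction. After scaling, that spot differed by -0.09 with age and by 0.02 with diet, and the brightest Hspa8 spot of array A by 0.08 and -0.02. The pair of dimmer Hspa8 spots lay at -0.59 and -0.36 with age and at 0.71 and 0.62 with diet. Thus the gene values of -0.23 with age and 0.32 with diet are midpoints between bright spots near 0 and dim spots away from it. The diet value was -0.15 with median centring, where all genes had a median of -0.31 (main scaling, -0.04).

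Hsp90aa1 encodes the stress-inducible cytosolic Hsp90, the chaperone of kinases and steroid receptors. Its gene level was 8.20 log2 at 17 days, 8.11 at 174 days and 8.21 under caloric restriction. Its 5 spots ran from -0.73 to 0.30 with age and from -0.49 to 0.75 with diet, on both sides of 0. The brightest of them, on array A, read 4009, 532 and 3817 in the order 17 days, 174 days and caloric restriction, and lay at -0.06 and 0.31. The gene values were -0.06 with age, 0.22 with diet and 0.02 between the calorie-restricted and the 17-day mouse. With median centring the diet value was -0.18, where all genes had a median of -0.31. Hspa4l, of the Hsp110 family of nucleotide exchange factors, rested on a single spot, with levels of 7.92, 8.40 and 7.68 in the same order. It was highest in the 174-day mouse, by 0.48 over the 17-day mouse, and lay at -0.73 with diet. After a correction for the position of spots on the array its diet value was -0.30.

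**Figure D3:**
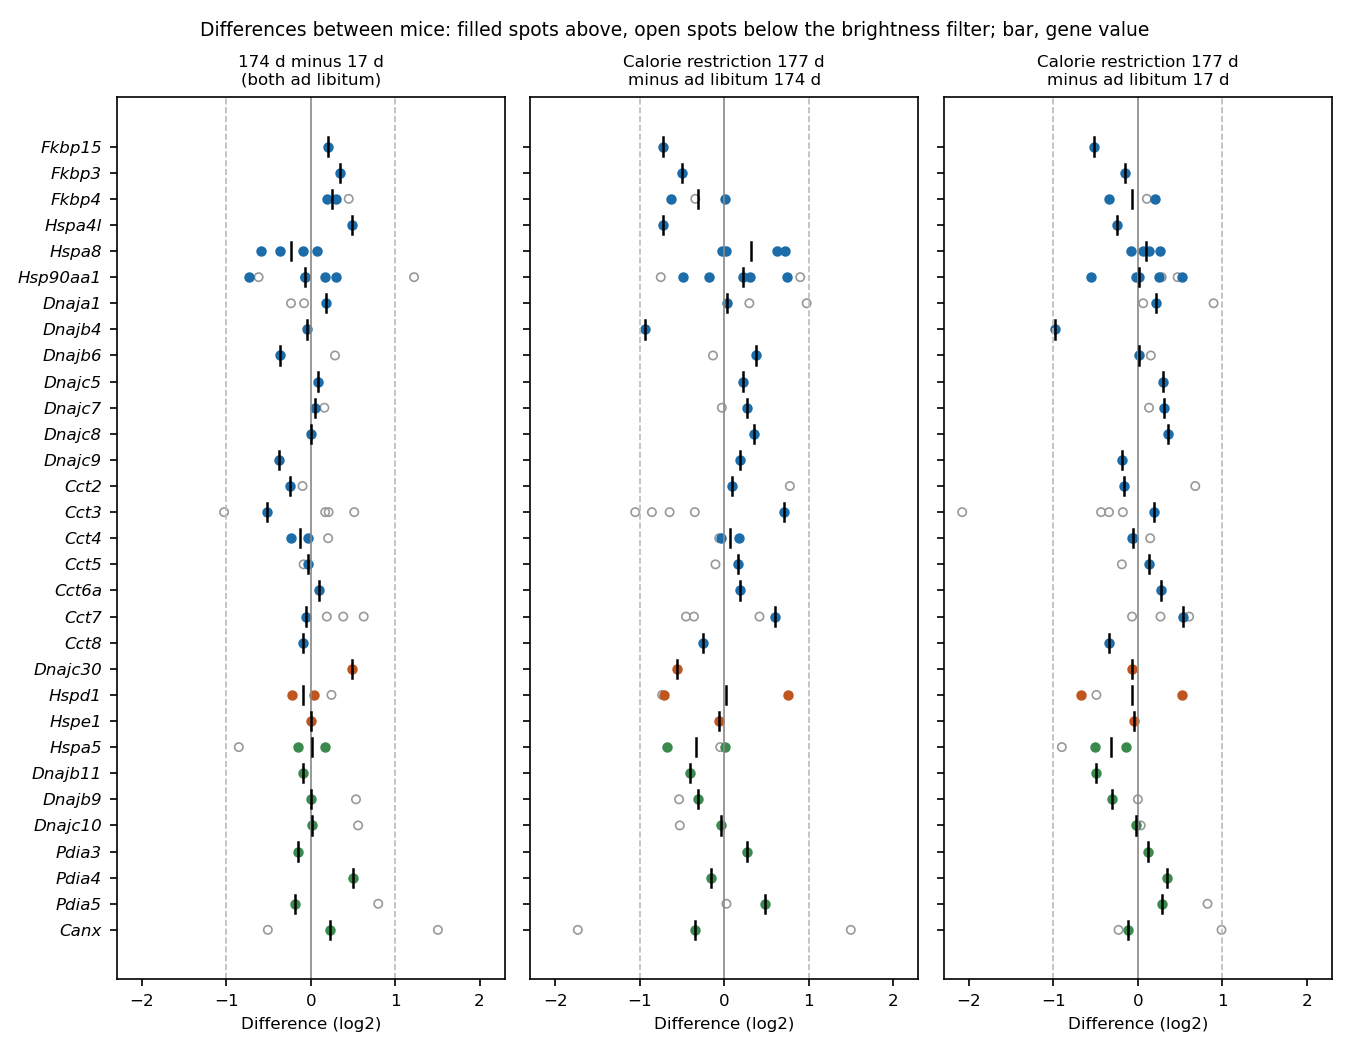
Difference (log2) of each member gene above the brightness filter in the 3 comparisons. Filled points are single spots above the filter (blue cytosolic, orange mitochondrial, green ER), open points are dimmer spots of the same gene, black bars are gene values and dashed lines mark 2-fold. No filled point lies past 2-fold, while open points of Cct3, Canx and Hsp90aa1 do.

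The cytosolic chaperonin TRiC folds actin and tubulin in a double ring of 8 kinds of subunit. Of these, Cct2, Cct3, Cct4, Cct5, Cct6a, Cct7 and Cct8 were members and all 7 passed the filter. The remaining subunit, Tcp1, does not match the rule for members and lay at 0.08 with age and -0.19 with diet. In the age comparison the 7 genes had a median of -0.09 with 1 above 0, and in the diet comparison a median of 0.17 with 6 above 0. With median centring these medians were 0.24 and -0.19, so neither kept its side of 0. All genes moved too, from -0.03 to 0.21 with age and from -0.04 to -0.31 with diet. With diet the median of the 7 genes was above that of all genes in both scalings. With age it was below that of all genes in the main scaling and above it with median centring. Cct4 had levels of 10.18 in the 17-day, 10.05 in the 174-day and 10.12 in the calorie-restricted mouse, with spots at -0.23 and -0.03 with age and at 0.17 and -0.04 with diet. Cct5 lay at -0.03 with age and 0.17 with diet, Cct6a at 0.10 and 0.18, and Cct2, with levels of 8.49, 8.24 and 8.33, at -0.25 and 0.09. With median centring Cct4 lay at -0.47 with diet, Cct5 at -0.19 and Cct6a at -0.80, and Cct6a at 0.62 with age. The dimmer Cct2 spot lay at 0.78 with diet.

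Cct3 showed the widest differences of the complex, and its spots disagreed. The single Cct3 spot above the filter had levels of 7.63, 7.12 and 7.83 in the order 17 days, 174 days and caloric restriction, lowest in the 174-day mouse. It lay at -0.52 with age and 0.71 with diet. The other 4 Cct3 spots, all below the filter, lay between -1.03 and 0.52 with age and between -1.05 and -0.35 with diet, so that all 5 together put the gene at -0.65 with diet. Cct7 had levels of 7.66, 7.60 and 8.20, highest in the calorie-restricted mouse, and a diet value of 0.60. Its 3 dimmer spots ran from -0.45 to 0.42 there, and the gene lay at 0.16 after the position correction. Cct8, at 9.56, 9.47 and 9.22, was lowest in the calorie-restricted mouse under all 4 scalings, from -0.45 to -0.21 against the 17-day mouse.

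Cytosolic J-domain genes included the member with the widest gap between mice. Dnajb4, a partner of Hsp70 in the class of Dnajb1, had intensities of 965.6 at 17 days, 103 at 174 days and 531.4 under caloric restriction. Its levels were 8.89, 8.85 and 7.91, so both ad libitum mice lay together and the calorie-restricted mouse about 1 log2 below them. Dnajb4 differed by -0.94 with diet and by -0.98 from the 17-day mouse. Over the 4 scalings these values ran from -1.02 to -0.85 and from -0.98 to -0.90. Dnajb4 has 1 named spot, on array A.

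The other 6 cytosolic or nuclear J-domain genes lay between -0.38 and 0.18 with age and between 0.03 and 0.38 with diet. The diet sign turned for Dnaja1 with median centring (-0.94) and after the position correction for Dnajc9 (-0.20) and Dnajc5 (-0.03). Dnaja1, a farnesylated partner of Hspa8, had levels of 11.47, 11.65 and 11.68, and Dnajc8, a splicing-associated J protein, of 8.61, 8.61 and 8.97. The 2 dimmer Dnaja1 spots lay at 0.30 and 0.98 with diet, above the 0.03 of the brighter spot. Dnajc8 was highest in the calorie-restricted mouse under all 4 scalings, by 0.35 to 0.42 over the 17-day mouse. Dnajc5, the cysteine string protein of vesicle release, and Dnajc7, which binds both Hsp70 and Hsp90, lay 0.30 and 0.31 above the 17-day mouse under caloric restriction, and 0.078 and 0.15 above it after the position correction. Dnajb6, which holds back protein aggregation, was lowest in the 174-day mouse, at 7.96 against 8.32 and 8.33. Its dimmer spot, at 0.29 with age, went the other way. Dnajc9, a histone chaperone with a J domain, lay at -0.38 with age, and at -0.17 after the position correction.

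The 3 cytosolic or nuclear FK506-binding genes above the filter were highest in the 174-day mouse. Fkbp3, a nuclear prolyl isomerase, had levels of 8.08 in the 17-day, 8.42 in the 174-day and 7.92 in the calorie-restricted mouse. Fkbp4, a cochaperone of Hsp90 in steroid receptor complexes, had 8.04, 8.28 and 7.97, and Fkbp15, an actin-associated member, 7.99, 8.19 and 7.46. They lay at 0.20 to 0.34 with age and at -0.72 to -0.31 with diet. These signs held under all 4 scalings, with a diet median of -0.60 to -0.34, but Fkbp15 lay at -0.34 with diet after the position correction. The 2 Fkbp4 spots above the filter lay at 0.01 and -0.64 with diet, a gap wider than the gene's value. Dimmer spots of other cytosolic FK506-binding genes lay at -0.23 with age for Fkbp1a and 0.29 for Fkbp5, which glucocorticoids induce.

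ER members had 8 genes above the filter. Their median was 0.01 with age, -0.23 with diet and -0.07 between the calorie-restricted and the 17-day mouse. In the diet comparison 2 of the 8 lay above 0 and 6 below (all genes, 47.2% and 52.7%, with a median of -0.04). With median centring the ER median was -0.26 and that of all genes -0.31, so the ER members lay above all genes there and below them in the main scaling. Cytosolic members lay at 0.17 there in the main scaling and at -0.19 with median centring. The difference between the places was not tested.

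Hspa5 encodes BiP, the Hsp70 of the ER lumen and the sensor partner of the unfolded protein response. Its brighter spot, on array B, had intensities of 2395 at 17 days, 435.4 at 174 days and 1581 under caloric restriction. That spot lay at -0.15 with age and 0.01 with diet, and the dimmer Hspa5 spot of array A above the filter at 0.17 and -0.68. A 3rd spot, below the filter, lay at -0.85 and -0.05. The diet value of the gene, -0.33, is the midpoint of that pair, and was -0.63 with median centring and -0.15 after the position correction. The gene values against the 17-day mouse were -0.32 for the calorie-restricted and 0.01 for the 174-day mouse. Dnajb11, the ER partner of BiP whose start carries the variant element shown above, had levels of 11.50, 11.42 and 11.01, lowest in the calorie-restricted mouse. It lay at -0.41 with diet and at -1.36 there with median centring. Dnajb9, an ER J protein that targets misfolded proteins for destruction, read 1601, 207.4 and 1458, with levels of 9.71, 9.71 and 9.40, and was again lowest in the calorie-restricted mouse. Dnajc10, a disulfide reductase with a J domain, lay at 0.02 with age and -0.03 with diet, while its dimmer spot lay at 0.56 and -0.53.

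Disulfide isomerases form and reshuffle the bonds of secreted proteins, and Pdia3, Pdia4 and Pdia5 passed the filter. Pdia4 had levels of 7.42 in the 17-day, 7.92 in the 174-day and 7.77 in the calorie-restricted mouse, higher in both older mice. It was 0.50 higher with age, 0.34 to 0.54 over the 4 scalings, on a single spot. Pdia5 had 7.97, 7.78 and 8.26, highest in the calorie-restricted mouse, at 0.48 with diet. Its dimmer spot lay at 0.80 with age, opposite to the -0.19 of the brighter spot. Pdia3, the partner of calnexin and calreticulin, lay at -0.15 with age and 0.27 with diet, and at -0.30 with diet after the position correction. Pdia6 was present on 2 dim spots, at -0.56 and -0.47 with diet and both at 0.03 with age.

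Of the 6 genes whose promoter windows hold the ER stress response element, Hspa5 and Canx had a spot above the brightness filter and the other 4 did not. Canx, the membrane-bound lectin chaperone calnexin, had 1 of 3 spots above it, with levels of 7.46, 7.70 and 7.35 and values of 0.23 with age and -0.35 with diet. One dimmer spot had intensities of 101.9, 28.2 and 88.5 and lay at 1.51 with age and -1.74 with diet, and the other had 303.8, 21.0 and 621.6 and lay at -0.51 with age. These Canx spots point in opposite directions in both comparisons, so the arrays set no direction for the gene. Calr, the soluble lectin chaperone calreticulin, had a single dim spot that read 202.7, 40.3 and 194.8 and lay at 1.02 with age and -1.14 with diet. Hsp90b1, the Hsp90 of the ER, had 2 dim spots at 0.45 and 0.08 with age and at -0.30 and 0.00 with diet. Dnajc3, an ER inhibitor of the kinase Eif2ak3, had 2 dim spots at -0.11 and 0.17 with age and -0.12 and 0.19 with diet.

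Xbp1, a transcription factor that acts on this element and no member itself, lay at -0.97 with age and 1.71 with diet. After the position correction it lay at 0.95 with diet. Its 1 spot had intensities of 492.1 at 17 days, 37.1 at 174 days and 641.0 under caloric restriction, so both values share the 1 low reading. Between the calorie-restricted and the 17-day mouse Xbp1 lay at 0.74, and at 0.13 after the position correction. Whether its level and those of the members with the element are linked was not tested.

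Of 8 mitochondrial members, Hspd1, Hspe1 and Dnajc30 passed the filter. Hspd1 and Hspe1 encode the Hsp60 ring of the matrix and its Hsp10 lid, which work as 1 machine and whose genes share the divergent promoter shown above. Hspe1 read 5584 in the 17-day, 801.8 in the 174-day and 4100.2 in the calorie-restricted mouse. Its levels were 11.38, 11.39 and 11.33, the same in all 3 mice to within 0.06 log2, with a diet value of -0.06. With median centring that value was -1.03. Hspd1 had levels of 9.25, 9.15 and 9.17, but its 2 spots above the filter parted with diet, at 0.75 for the brighter and -0.71 for the dimmer. A 3rd, dim Hspd1 spot lay at -0.74. The Hspd1 value of 0.02 with diet is the midpoint of spots that disagree, whereas with age they lay at -0.23 and 0.04.

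Dnajc30, a small mitochondrial J protein, had levels of 7.54, 8.03 and 7.47, highest in the 174-day mouse. It lay at 0.49 with age and -0.56 with diet, and at 0.12 and -0.05 after the position correction. Hspa9, the matrix Hsp70 that pulls in imported proteins, had a single spot at the 43.7th percentile of brightness, at -0.10 with age and 0.28 with diet. Dim spots of Dnaja3, Dnajc11, Dnajc15 and Fkbp8, the last of the outer membrane, ran from -0.55 to 0.38 with age and from -0.96 to 0.24 with diet.

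Among the members, dimmer spots had wider differences with age and with diet, and all named spots showed the same with age. The 9 member spots in the top 10% of their array kind had a median size of difference of 0.09 log2 with age and 0.06 with diet. For the 743 named spots of that class the medians were 0.15 and 0.25. The 33 member spots between the filter and the top 10% had medians of 0.19 and 0.36, against 0.24 and 0.42 for all named spots there. The 63 member spots below the filter had 0.29 and 0.42, against 0.32 and 0.41. Of these 63 dim spots 6 were at least 2-fold apart with age (all named dim spots, 6.95%, and all named spots, 4.33%), 9 with diet (10.9% and 9.37%) and 1 between the calorie-restricted and the 17-day mouse (1.48% and 1.65%). They belonged to Hsp90aa1, Canx, Calr, Hspb1, Dnaja2, Cct3, Dnajc13, Hspa12a and Fkbp11. Among the 42 spots above the filter none was 2-fold apart.

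**Figure D4:**
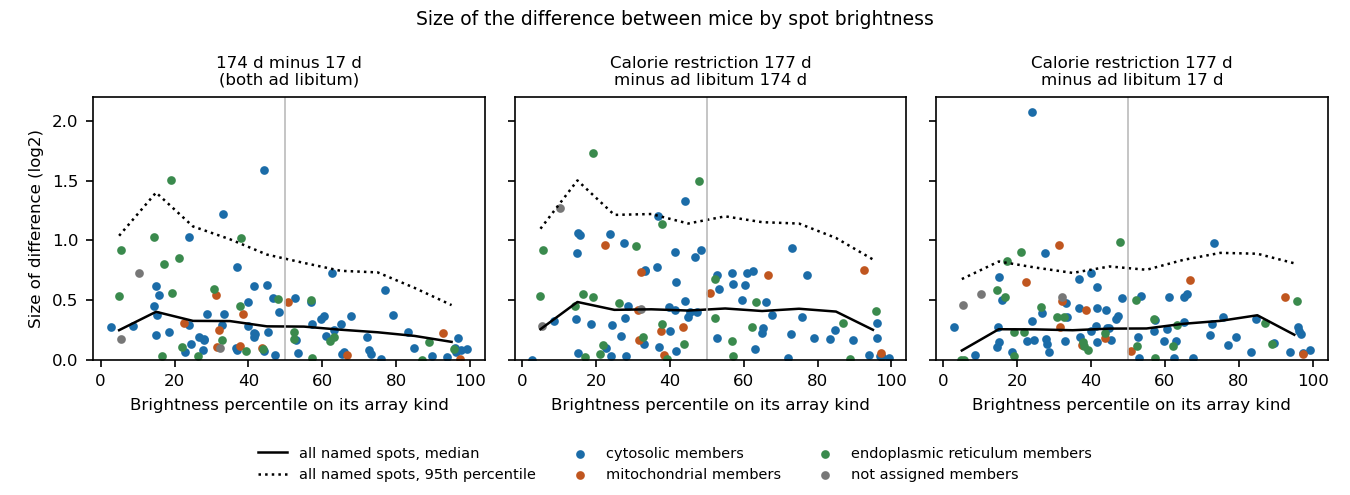
Size of the difference between mice (log2, sign removed) of each of the 105 member spots against its brightness percentile on its array kind. Lines give the median (solid) and the 95th percentile (dotted) of all 9663 named spots in bins of brightness, and the grey line at 50 marks the filter. Member spots past 1 log2 all lie left of the filter.

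The 27 member genes without a spot above the filter cannot be ranked by their differences. They include both small heat shock genes among the members, Hspb1 and Hspb8, which hold denatured proteins in solution. Hspb1 had intensities of 123.7 at 17 days, 8.19 at 174 days and 180.3 under caloric restriction, and lay at -0.55 with age and 1.05 with diet. Hspb8 lay at 0.28 and 0.44. The heat-inducible Dnajb1 had 2 spots at -0.48 and -0.04 with age and 0.24 and 0.40 with diet, and Hsph1, the main cytosolic Hsp110, 2 spots at -0.19 and -0.08 with age and -0.20 and 0.49 with diet. Dnaja2, a cytosolic J protein, gave 1.59 with age on array A and 0.29 on array B. The 2 spots of Hspa12a, a distant Hsp70, were both at least 2-fold apart with diet, in opposite directions. Hspa14, on ribosomes, lay at 0.92 with diet just below the filter, at the 48.4th percentile.

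Other folding genes were drawn from lists that the rule for members did not use. Other cytosolic folding factors, such as prefoldins, the cyclophilin Ppia and tubulin cofactor Tbca, were 19 listed genes. Of these, 15 had a named spot and 8 were above the filter. With diet none of the 8 lay above 0 (all genes, 47.2%), with a median of -0.48, from -1.17 for Cryab to -0.19 for Tcp1. Cryab ran from -1.23 to -0.78 over the 4 scalings. After the position correction 1 of the 8 lay above 0 and the median was -0.20. Heat shock regulators and cochaperones had 11 genes above the filter, of 29 listed and 18 with a named spot. Their medians were 0.07 with age and -0.27 with diet. In this list Ppp5c, a phosphatase bound to Hsp90, was at least 2-fold lower with diet in the main scaling (-1.11, from -1.29 to -0.71 over the 4 scalings), and Hsbp1, which binds heat shock factor, with age (-4.68). Its 1 spot had intensities of 2769, 11.7 and 139.4, and it was below the brightness filter with median centring and with loess. The unfolded protein response had 12 genes above the filter, of 32 listed and 22 with a named spot. With diet 9 lay above 0, with a median of 0.20 (all genes, 47.2% and -0.04). With median centring 4 did, with a median of -0.07 (all genes, 32.6% and -0.31). Of these 12 genes, Xbp1 alone was at least 2-fold apart in the main scaling. Other ER folding genes, P4hb among them, had medians of 0.12 with age and -0.15 with diet over 8 genes, of 34 listed and 18 with a named spot. Other mitochondrial quality control genes had 0.04 and -0.24 over 12 genes, of 24 listed and 18 with a named spot. The protease subunit Clpp lay at -1.03 with diet, from -1.47 to -0.48 over the 4 scalings. That value is the midpoint of 2 spots, at -1.42 and -0.64.

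Both array kinds carried 8448 spots. Median intensity was 35.8 to 60.8 in the 174-day mouse and 332.8 to 402.5 in the other 2 mice, so the 174-day arrays were the dimmest. As markers of the tissue, 12 hepatocyte genes were listed and 5 had a named spot. Of these 5, the 4 above the filter were Alb, Apoa1, Ttr and Serpina1e. Their summed level was 14.52 log2 in the 17-day, 14.32 in the 174-day and 15.00 in the calorie-restricted mouse. Of these genes Alb lay at 1.18 with diet, against -0.01 for Apoa1 and -0.46 for Serpina1e. With median centring Alb lay at -0.15 and 0 of the 4 hepatocyte genes lay above 0 with diet. All genes had a diet median of -0.31 there, with 32.6% above 0. Markers of other cells are counted among those with a named spot. Above the filter were 1 of 2 for Kupffer cells (summed level 9.39 to 9.63), 1 of 2 endothelial (9.68 to 10.10) and 3 of 4 stellate (10.74 to 10.89). It was 2 of 3 for cholangiocytes (8.77 to 9.19) and 3 of 4 for erythroid cells (10.27 to 10.37). For pancreas it was 1 of 1 (8.50 to 8.86), for skeletal muscle 1 of 1 (8.16 to 8.58) and for lymphocytes 0 of 1. Their part in the member differences was not tested, and in whole liver fewer cells of a type cannot be told apart from less RNA per cell.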

How the data were processed

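Liver total RNA of 3 mice was measured on 6 arrays. The range of the values shows the deposited numbers to be linear intensity per spot; how the authors labelled, scanned, background-corrected or scaled them is not given in the sources used here. Of 16896 spots, 9663 had 1 symbol in GEO's platform annotation, 436 several and 6797 none. All 105 member spots matched RefSeq (GRCm38.p6) by gene number and 0 symbols changed. Values under an array's 5th percentile were raised to it, and log2 values were then quantile-normalized across the 3 mice, separately for arrays A and B. A gene counted as apart at 1 log2 (2-fold). No test was possible with 1 mouse per group. Named with values were members 2-fold apart, the 3 highest and 3 lowest of each location in each comparison, the 10 with the highest mean level, those with 2 or more spots above the filter, and set chaperones (Hspa5, Hsp90b1, Canx, Calr, Hspa8, Hsp90aa1, Hspd1, Hspe1, Hspa9 and the Cct genes); members below the filter were to be named where they disagreed with a brighter spot of the gene, and some others were named after their values were seen. Alternatives were median centring, loess (span 0.3), no brightness filter, array A or B alone, and leaving out spots of exactly 10. A correction for spot position took off each array's median deviation from the spot means, by block of 528 spots and then by place within a block. The last alternatives dropped spots where the 174-day or the 17-day mouse alone stood 1.5 log2 or more apart. The "4 scalings" are quantile, median centring, loess and position correction. The steps were tested on simulated data. Members and lists were chosen with earlier results of these data known. Columns without a mouse numbered 0. Scripts ran in Python 3.11.15 (pandas 2.3.3, numpy 2.4.6), with loess from statsmodels 0.14.6 and plots from matplotlib 3.10.9.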

Additional observations from a re-analysis of the deposited data

How the results depend on the processing

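Without the brightness filter 2 of 58 members, Calr and Fkbp11, were at least 2-fold higher with age. With diet 1 was higher (Hspb1) and 1 lower (Calr), each on a single dim spot. Of all 7151 genes in that setting, 140 were higher and 90 lower with age, and 219 higher and 313 lower with diet. Beside these numbers the member counts are not a result about the members. With median centring 3 were at least 2-fold lower with diet (Dnajb11, Dnajb4 and Hspe1), and with loess 1 (Dnajb4). The other counts of members 2-fold apart were 0 under every alternative run. The member median moved with median centring to 0.23 with age and -0.23 with diet, with array A alone to 0.17 with diet, and between the calorie-restricted and the 17-day mouse to 0.062 without the filter and 0.044 with the position correction. Of all 3869 genes, median centring gave 50 higher and 613 lower with diet, and loess 78 and 213. The main setting gave 87 and 178 of 3865. The position correction gave 36 genes higher and 78 lower with diet among all genes, so it narrowed diet differences beyond the members too. With array A alone 21 member genes were measured and with array B alone 14. Of 31 members, 17 kept 1 sign over the 4 scalings with age, 18 with diet and 18 in the last comparison. The same count was not made over all genes. No paired analysis was possible because each group has 1 mouse. Signal over background is unknown, which limits all dim spots, and the cause of these shifts was not tested.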

Other observations

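Some spots of 1 gene stood 44 places apart in the spot order. Among 35 neighbouring pairs of member spots of the same gene on the same array kind, 8 pairs were at exactly this distance, and among 1549 such pairs of all named genes 87 were. The 4 Cct3 spots in such a row read 331.2, 421.1, 298.8 and 183.7 in the 17-day mouse, 15.7, 29.0, 33.8 and 20.5 in the 174-day mouse, and 80.2, 506.6, 228.1 and 169.7 in the calorie-restricted mouse. Pairs at this distance also belonged to Hsp90aa1, Hsp90b1, Cct5 and Cct7.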
